A study of Mus musculus with 4 samples.

Results

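Genes of glycolysis and of the response to hypoxia were examined in tumor associated macrophages (TAMs) from MCA205 fibrosarcomas of control and propranolol treated mice. The set comprised 34 mouse genes listed by symbol: 22 for glucose uptake, the glycolytic enzymes and the handling of pyruvate and lactate, and 12 for hypoxia inducible factors (HIF), the prolyl hydroxylases that control them and known HIF targets. The identifiers of the count table were matched to GENCODE release M21, in which these symbols stood for 35 of the 54146 genes of the table, since Aldoa names 2 neighboring entries on chromosome 7. Of the 54146 genes, 14688 passed the filter on low counts and were tested, among them all 35 entries.

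TAMs came from tumors grown under the skin of female mice aged 8 to 16 weeks. The methods name C57BL/6 and NMRI-nu/nu stocks, and their part on cell sorting does not state the strain. MCA205 is a transplanted mouse fibrosarcoma cell line. CD45+ cells were enriched with magnetic beads, and live cells positive for CD11b and F4/80 were then sorted. Propranolol, a nonselective blocker of beta-adrenergic receptors, was given at 0.5 g/L in the drinking water from the day of tumor inoculation, whereas control mice, labelled vehicle, did not receive it. Each group had 2 libraries of polyadenylated RNA, numbered 1 and 2. The study names them biological replicates. Whether a library came from 1 mouse or from a pool is not given in the sources used here. The counts of a library added up to 13798249 and 23018142 for controls and to 39818103 and 16424081 for propranolol. Levels within a gene are given as CPM, counts scaled to the TMM-normalized size of the library. Levels of different genes are compared as TPM, which also divides by exon length but carries no TMM factor, so that differences between the groups are drawn from CPM. Log2 fold changes are those of the edgeR quasi-likelihood test, propranolol minus control, with their standard error (SE) and a p-value adjusted over all tested genes. A gene was called changed when the adjusted p was below 0.05 and the change exceeded 1.5-fold.

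Glycolysis breaks glucose down to pyruvate in the cytosol and yields ATP without oxygen. Where pyruvate is reduced to lactate, NAD+ is regenerated and lactate leaves the cell through monocarboxylate transporters. HIF are dimers of an oxygen-regulated alpha subunit and a constant beta subunit. In the presence of oxygen, prolyl hydroxylases of the EGLN family mark the alpha subunit for degradation, and in its absence HIF accumulates and induces many glycolytic genes together with genes for angiogenesis, autophagy and collagen modification. Macrophages in poorly perfused tumor areas are known to use this program, and inflammatory activation of macrophages also raises glycolysis.

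The sorted cells carried the markers of macrophages. Apoe, the most abundant of the 12 macrophage markers listed, had 10774 and 9926 CPM in controls and 13896 and 15356 CPM after propranolol, and the F4/80 gene Adgre1 had 975 and 1008 against 1151 and 1100.0 CPM. The summed CPM of the 12 macrophage markers was 33807 and 32007 in controls against 42779 and 41467 after propranolol, and 1 of the 12, the receptor gene Csf1r, was called higher. Both propranolol libraries lay above both control libraries for 10 of the 12, as for 35.8% of all tested genes. The CD11b gene Itgam had 359 and 352 against 369 and 313 CPM, with overlapping groups. C1qa was below the controls in both propranolol libraries, with 4133 and 4140 against 3825 and 3478 CPM (log2 fold change -0.18, edgeR adjusted p = 0.112). Markers of other cells moved as well, and their counts stand against 12.2% of all tested genes called higher and 15.6% called lower. Of 11 markers of T and NK cells, 10 were lower, with a summed CPM of 365 and 403 against 171 and 94.3, Gzmb being the most abundant in the controls. Of 11 mesenchymal markers, 8 were lower, with a summed CPM of 3122 and 1183 against 721 and 781, and Col1a1 was the most abundant in the controls by TPM. Control replicate 1 stood apart in these mesenchymal markers. Of 12 neutrophil markers, 8 were tested and 5 of them were higher, with a summed CPM of 182 and 199 against 357 and 383, S100a9 being the most abundant by TPM, while Ly6g, Ngp, Camp and Elane were below the filter with at most 0.524 CPM in any library. Of 8 genes that are induced by tissue dissociation, such as Fos and Hspa1b, 4 were higher, with a summed CPM of 3044 and 3753 against 4818 and 5986, Hspa1b being the most abundant in the propranolol libraries. Of 6 dendritic cell markers 3 were lower, with a summed CPM of 32.8 and 32.1 against 20.2 and 17.7. The lists for endothelial, B and erythroid cells summed to at most 64.1 CPM in every library. After correction for the GC content of the transcripts, 7.64% of all tested genes were called higher and 4.99% lower. With that correction 9 T and NK cell markers, 8 mesenchymal markers and 1 dendritic cell marker were lower, and 6 neutrophil markers and 2 dissociation genes were higher. Csf1r was then under 1.5-fold, while another macrophage marker, Mrc1, was called higher (log2 fold change 0.85, edgeR adjusted p = 0.000712). C1qa then had a log2 fold change of -0.51, a decrease under 1.5-fold (edgeR adjusted p = 0.00758). In bulk RNA of sorted cells, fewer cells of a type and less RNA per cell cannot be told apart, and the part of these other cells in the changes described here was not tested.

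**Figure D1:**
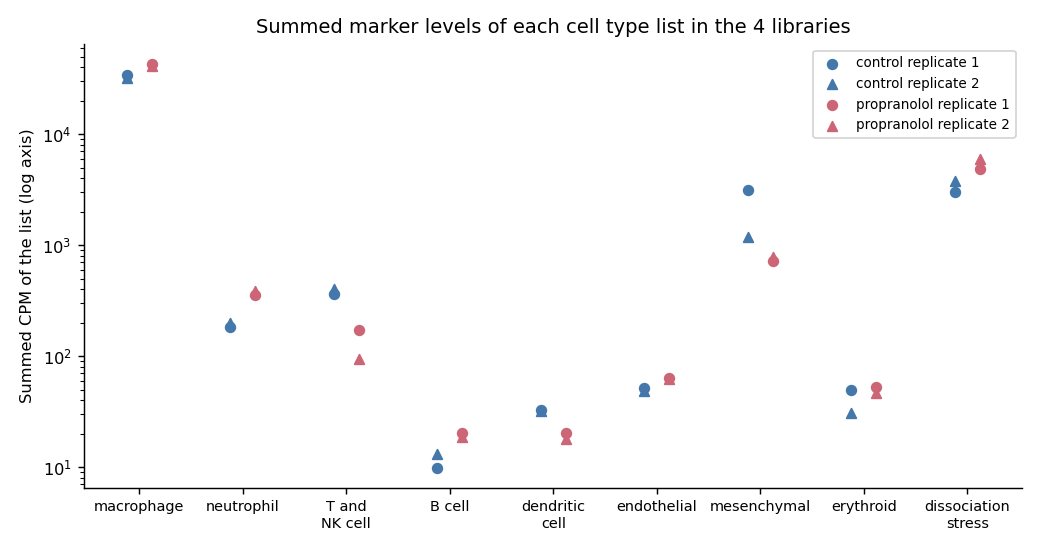
Summed CPM (log axis) of each marker list in the 4 libraries, with circles for replicate 1, triangles for replicate 2, blue for control and red for propranolol. The macrophage sum lies at or above 32007 CPM in all 4 libraries, the T and NK cell sum is lower in both propranolol libraries, and control replicate 1 has the highest mesenchymal sum.

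Genes of glycolysis were on balance higher in the propranolol libraries. The shares of HIF-related entries called higher or lower were near those of all tested genes. Most calls among the 35 entries were lost once the GC content of the transcripts was corrected for. Then 1 of 23 glycolytic entries and 2 of 12 hypoxia entries were higher and 0 lower, against 7.64% and 4.99% of all tested genes. Of the 35 entries, 11 were higher (31.4%) and 2 were lower (5.71%), against 12.2% of all tested genes called higher and 15.6% called lower. The higher genes were Slc2a1, Hk3, Pfkl, Gapdh, Pgam1, Eno1, Pkm, Ldhb and Pfkfb4 of glucose metabolism and the hypoxia target genes Hilpda and Mif. The lower genes were Hif1a and Bnip3. The median log2 fold change was 0.43 over the 35 entries and -0.02 over all tested genes. Both propranolol libraries lay above both control libraries for 23 entries, as for 35.8% of all tested genes, and below them for 4, as for 36.9% of all tested genes, and the groups overlapped for 8. Without control replicate 1, which stood apart in mesenchymal markers, 13 entries were higher and 1 was lower. Among the 23 glycolytic entries 9 were higher and 0 lower by edgeR, and 7 more had increases under 1.5-fold with an adjusted p below 0.05. At an unadjusted p below 0.05, 1 glycolytic entry (Pdk1) was lower by edgeR and 0 by DESeq2, which also called 0 lower. Together the 23 entries took 1.08% and 1.15% of all counts in controls and 1.51% and 1.45% after propranolol. Among the 12 entries related to hypoxia, 2 were higher and 2 were lower (16.7% each), near the 12.2% and 15.6% of all tested genes. Their share of all counts was 0.103% and 0.0995% against 0.0938% and 0.0888%. The shares of counts carry no TMM factor, and in CPM the same entries summed to 957 and 913 in controls against 1027 and 955 after propranolol.

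**Figure D2:**
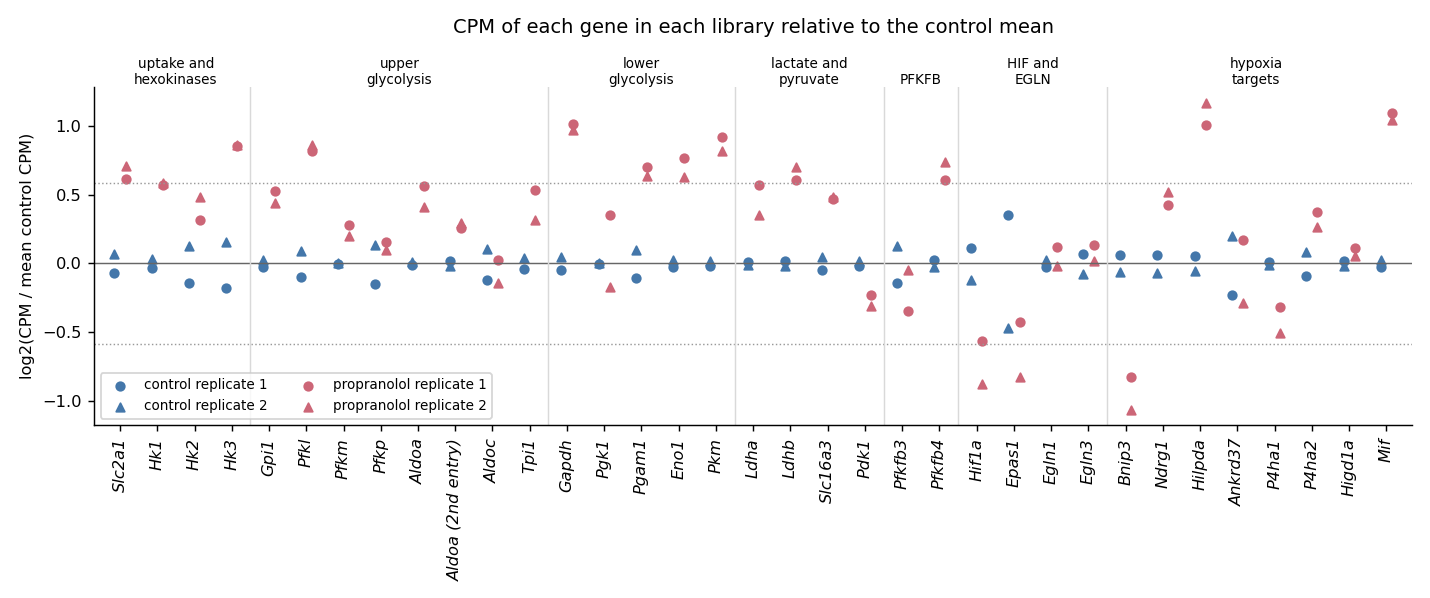
CPM of each of the 35 entries in each library as log2 of its ratio to the mean control CPM, with dotted lines at a 1.5-fold change and entries ordered by role. Both propranolol libraries lie above both control libraries for 23 entries and below them for 4.

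The fold changes followed the GC content of the transcripts across the whole table. Over the 14681 tested genes with a known GC content, log2 fold change and GC content had a Spearman correlation of 0.577 across genes, which are not independent replicates. Among genes with 30 to 45% GC, 0.864% were higher and 41.9% were lower, whereas among genes with 55 to 60% GC 31.6% were higher and 4.03% were lower. The listed genes followed the same trend, with a Spearman correlation of 0.656 over the 35 entries, which come from the same 4 libraries. Hif1a and Bnip3, the genes called lower, had 41.3% and 41.6% GC and were the only entries below 45%. Of the 11 higher genes, 6 were among the 19 entries with 50 to 55% GC, where 15.5% of all tested genes were higher, 4 were among the 8 entries with 55 to 60% and 1, Mif with 63.5%, was above 60%. When the GC trend of each library was removed, 3 of the 35 entries remained higher, namely Gapdh, Hilpda and Mif, and 0 were lower, against 7.64% and 4.99% of all tested genes. A further 10 entries kept an edgeR adjusted p below 0.05 with increases under 1.5-fold, and 3 had a lower level at an unadjusted p below 0.05. The median over the 35 entries was then 0.20 and that over all tested genes 0.09, which is a shift of all genes by 0.11.

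**Figure D3:**
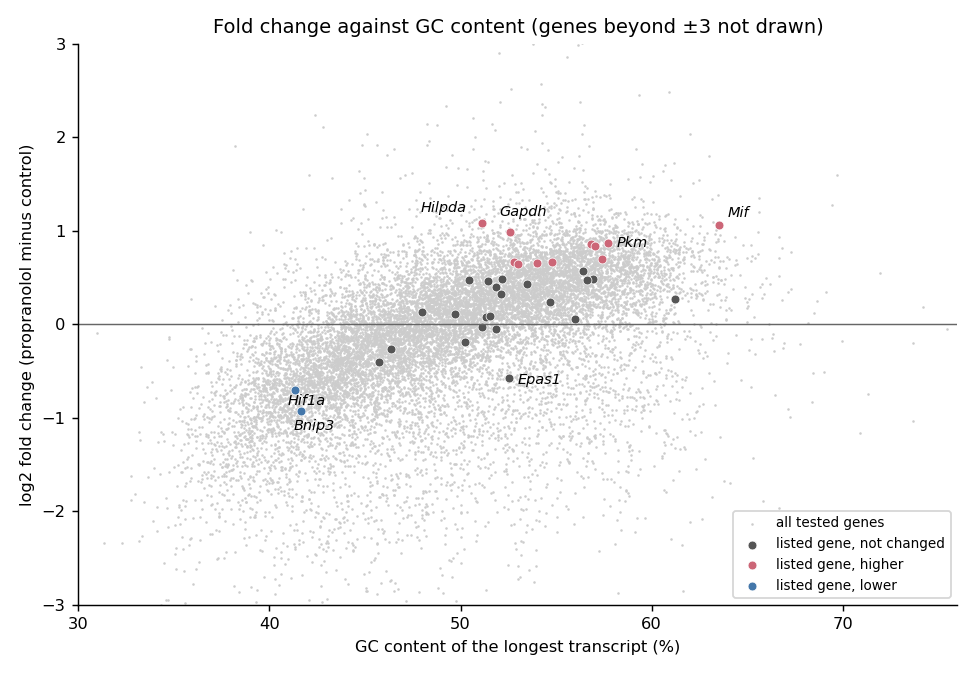
Log2 fold change (propranolol minus control) against the GC content of the longest transcript in percent, for all tested genes (gray) and for the 35 entries, colored by their call. Fold changes rise with GC content in gray genes and listed entries, Hif1a and Bnip3 lie at the low end of GC content, and Hilpda and Gapdh lie above most genes of like GC content.

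To show what the upstream sequence of these genes holds, the 150 bases before the first RefSeq start site are printed for 4 higher genes of the list, for Ldha as the main lactate dehydrogenase gene and for both lower genes. They are given 5′ to 3′ on the strand of the gene with coordinates of GRCm38.p6, and capitals mark ACGTG or GCGTG and their reverse complements CACGT and CACGC, the core to which HIF is known to bind.
Slc2a1, chr4:119108595-119108744, plus strand: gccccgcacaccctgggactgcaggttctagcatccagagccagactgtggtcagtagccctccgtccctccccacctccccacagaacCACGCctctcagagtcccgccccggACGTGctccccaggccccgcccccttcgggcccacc
Gapdh, chr6:125165774-125165923, minus strand: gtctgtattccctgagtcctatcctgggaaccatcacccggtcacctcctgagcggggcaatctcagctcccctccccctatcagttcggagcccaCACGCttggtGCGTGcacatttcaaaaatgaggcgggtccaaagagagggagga
Pgam1, chr19:41911721-41911870, plus strand: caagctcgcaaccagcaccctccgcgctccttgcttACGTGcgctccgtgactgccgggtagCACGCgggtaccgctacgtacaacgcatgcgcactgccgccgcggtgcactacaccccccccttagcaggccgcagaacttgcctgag
Ldha, chr7:46845654-46845803, plus strand: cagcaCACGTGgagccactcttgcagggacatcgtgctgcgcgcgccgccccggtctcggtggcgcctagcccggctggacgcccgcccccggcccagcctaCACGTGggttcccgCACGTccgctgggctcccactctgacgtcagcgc
Mif, chr10:75860278-75860427, minus strand: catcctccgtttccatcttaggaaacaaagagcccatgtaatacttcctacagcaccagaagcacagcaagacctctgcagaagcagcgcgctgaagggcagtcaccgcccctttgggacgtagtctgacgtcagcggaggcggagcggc
Hif1a, chr12:73907717-73907866, plus strand: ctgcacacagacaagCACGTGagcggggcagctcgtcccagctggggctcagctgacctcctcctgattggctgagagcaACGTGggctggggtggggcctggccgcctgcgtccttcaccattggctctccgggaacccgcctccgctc
Bnip3, chr7:138909507-138909656, minus strand: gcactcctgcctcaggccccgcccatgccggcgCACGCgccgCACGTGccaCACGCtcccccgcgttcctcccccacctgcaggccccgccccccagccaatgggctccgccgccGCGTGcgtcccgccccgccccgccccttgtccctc
Mif, whose transcript has the highest GC content of these genes, has neither ACGTG nor GCGTG in the stretch shown, and Ldha and Bnip3 have 5 matches each. Ldha has a second RefSeq start site, not shown, with 1 match in the 250 bases before it. In these counts a palindromic CACGTG counts as 2 overlapping matches. Of the 32 listed genes found in the RefSeq table, 29 (90.6%) had at least 1 match on either strand in the 250 bases before a start site, as had 59.9% of the tested genes in the table and 38.6% of all 32851 start sites. Matches were present for 10 of 11 higher genes, for 2 of 2 lower genes and for 17 of 19 genes that were not changed. Since most listed genes had a match, this count cannot separate changed from unchanged genes, and a difference was not tested. A match describes the letters and not a bound site.

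Entry of glucose and its phosphorylation are the first steps. Slc2a1 (chr4:119108711-119137983), which encodes the glucose transporter GLUT1, had 324 and 356 CPM in controls and 519.9 and 554 CPM after propranolol. The groups did not overlap, and Slc2a1 was 1.58-fold higher (log2 fold change 0.66, SE 0.10, edgeR adjusted p = 0.000626). Hk3 (chr13:55005985-55021385), a hexokinase of myeloid cells, had 336 and 422 CPM in controls and 684 and 689 CPM after propranolol. Its propranolol libraries were nearly equal and both lay above the controls, with a 1.81-fold increase (log2 fold change 0.86, SE 0.12, edgeR adjusted p = 0.00042). Hk2, the inducible hexokinase of tumors and activated leukocytes, had 209 and 252 CPM against 286 and 322 CPM. The groups did not overlap, but the increase of 1.32-fold stayed below the threshold of 1.5-fold (edgeR adjusted p = 0.0195). The ubiquitous Hk1 lay just under that threshold, with 1.49-fold (log2 fold change 0.58, edgeR adjusted p = 0.00107). After removal of the GC trend the log2 fold changes were 0.41 for Slc2a1, 0.53 for Hk3, 0.26 for Hk2 and 0.25 for Hk1.

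By TPM, which carries no GC correction, Hk3 was the most abundant hexokinase gene. It made up 63.0% and 65.0% of the TPM of the 3 genes in controls and 70.9% and 69.4% after propranolol. The share of Hk2 was 24.2% and 23.9% against 18.3% and 20.0%. The Hk3 share was therefore higher and the Hk2 share lower in both propranolol libraries, a difference for which 2 libraries a group cannot give an exact permutation p below 0.333.

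Of the 8 entries for the upper steps, from glucose 6-phosphate to the trioses, Pfkl alone was called higher. This is 12.5%, near the 12.2% of all tested genes. With the GC trend removed 0 were higher, against 7.64% of all tested genes. Pfkl (chr10:77986947-78010083) encodes the liver type of phosphofructokinase, the main control point of the pathway, and had 268 and 305 CPM in controls and 504 and 521 CPM after propranolol. The groups did not overlap and Pfkl was 1.79-fold higher (log2 fold change 0.84, SE 0.10, edgeR adjusted p = 0.000243; 0.50 with the GC trend removed). The muscle and platelet types gave smaller values, with log2 fold changes of 0.24 for Pfkm (edgeR adjusted p = 0.149) and 0.13 for Pfkp (edgeR adjusted p = 0.392). With the GC trend removed Pfkm had -0.04 and Pfkp 0.28. Pfkl made up 65.4% and 65.4% of the TPM of the 3 phosphofructokinase genes in the controls and 74.3% and 75.8% after propranolol. These shares carry no GC correction.

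Gpi1, Tpi1 and Aldoa had adjusted p below 0.05 with changes under 1.5-fold. Gpi1, the glucose phosphate isomerase, had a log2 fold change of 0.48 (edgeR adjusted p = 0.00201). Tpi1, the triose phosphate isomerase, had 0.43 (edgeR adjusted p = 0.00717), and Aldoa, the main aldolase, had 0.49 (edgeR adjusted p = 0.00195). With the GC trend removed the edgeR adjusted p was 0.0284 for Gpi1, 0.196 for Tpi1 and 0.295 for Aldoa. Aldoa was the most abundant of the upper genes, with 1617 ± 46.6 TPM in the controls (SD, n = 2), and made up 97.4% and 97.0% of the aldolase TPM in the control libraries. The neighboring entry of the same name, ENSMUSG00000114515, had 2.16 and 2.11 CPM in the controls and 2.56 and 2.62 CPM after propranolol, with a log2 fold change of 0.28 and an edgeR adjusted p of 0.585. Aldoc, the brain type, had a log2 fold change of -0.05 (edgeR adjusted p = 0.766) and its groups overlapped.

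The lower steps, which yield ATP and pyruvate, had 4 of 5 genes higher, against 12.2% of all tested genes, and 1 of 5 with the GC trend removed, against 7.64%, and a summed CPM of 4067 and 4224 in controls against 7686 and 7146 after propranolol. Gapdh (chr6:125161715-125166467), glyceraldehyde-3-phosphate dehydrogenase and a common reference gene in qRT-PCR, had 1029 and 1096 CPM against 2142 and 2079.6 CPM. The propranolol libraries were close to 1.99 times the controls (log2 fold change 0.99, SE 0.09, edgeR adjusted p = 0.000103), and the log2 fold change was 0.81 with the GC trend removed (edgeR adjusted p = 0.000561). Transcripts of 140 other genes share at least 150 bases of at least 95% identity with Gapdh, and the counts of the 139 that the table lists came to between 4.07% and 5.46% of the Gapdh counts in a library.

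Pkm (chr9:59656368-59679375), pyruvate kinase, was the most abundant of the 35 entries in the propranolol libraries by TPM. It had 2059.8 and 2111 CPM in controls and 3943 and 3664 CPM after propranolol, 1.82-fold higher without overlap (log2 fold change 0.87, SE 0.08, edgeR adjusted p = 0.000118). Exons of Pkm overlap Gm49759 on the same strand over 15.3% of their length, so that Gm49759 is part of the same locus and not a separate copy. The counts of genes that share sequence with Pkm, mostly of Gm49759, came to between 1.54% and 3.75% of those of Pkm. How reads of the shared exons were assigned cannot be told from these counts. Counts for the whole gene do not separate its isoforms. Eno1 (chr4:150236721-150248879), enolase, had 698 and 724 CPM against 1209 and 1097 CPM and was 1.62-fold higher (log2 fold change 0.70, SE 0.09, edgeR adjusted p = 0.000382). Pgam1 (chr19:41911923-41918660), phosphoglycerate mutase, had 70.3 and 81.3 CPM against 123 and 118 CPM and was 1.59-fold higher (log2 fold change 0.67, SE 0.11, edgeR adjusted p = 0.00108). In all of these genes the groups were separated by more than the distance between replicates. With the GC trend removed the log2 fold changes were 0.53 for Pkm, 0.36 for Eno1 and 0.48 for Pgam1, each below 1.5-fold. Pgk1, phosphoglycerate kinase, was the exception among the lower steps, with a log2 fold change of 0.12 (edgeR adjusted p = 0.56) and overlapping groups.

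**Figure D4:**
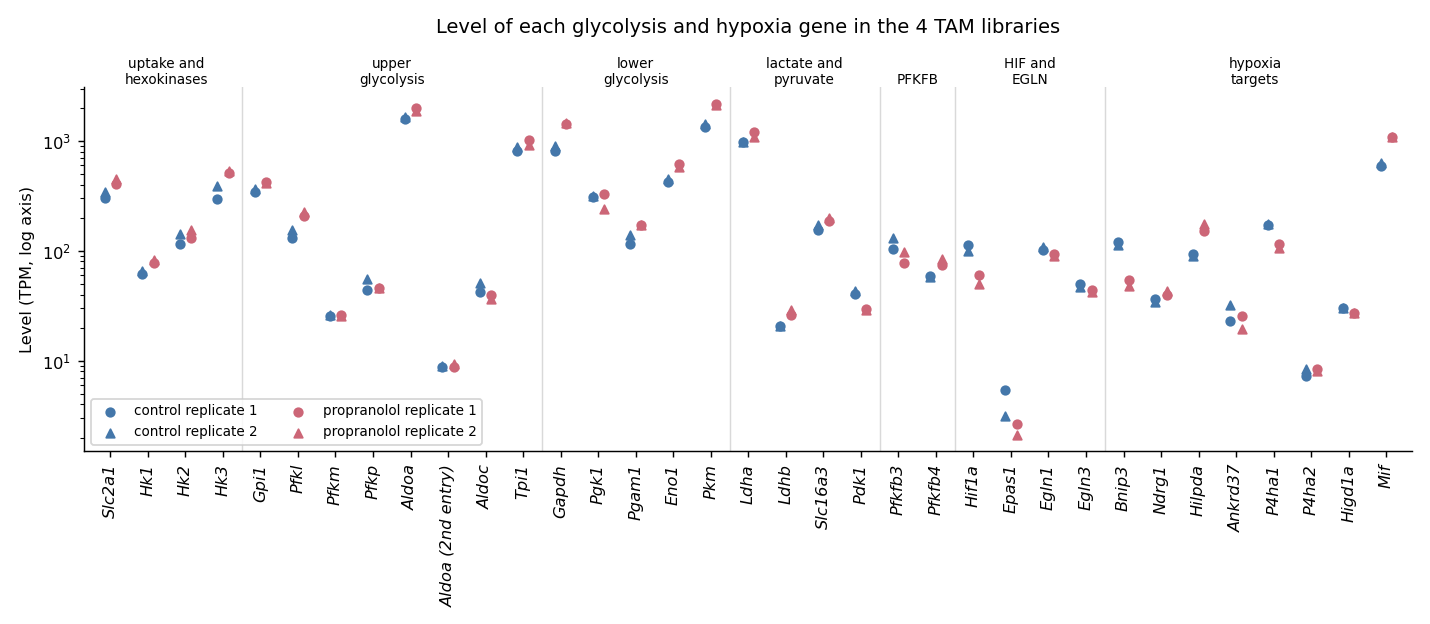
Level of each of the 35 entries in each library in TPM (log axis), ordered by role, with circles for replicate 1, triangles for replicate 2, blue for control and red for propranolol. Aldoa and Pkm are the most abundant entries and Epas1 the least abundant; TPM carries no TMM factor, so that distances between the groups differ from those in CPM.

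Of the 4 genes for lactate and pyruvate, Ldhb was called higher (25%, against 12.2% of all tested genes). With the GC trend removed 0 were higher, against 7.64%. Ldha, which turns pyruvate into lactate and is a classical HIF target, had 984 and 970.1 CPM in controls and 1451 and 1245 CPM after propranolol. Both propranolol libraries were higher, but the increase of 1.38-fold was below the threshold (log2 fold change 0.46, SE 0.10, edgeR adjusted p = 0.00409). With the GC trend removed Ldha had a log2 fold change of 0.35 (edgeR adjusted p = 0.0343). Ldhb (chr6:142490249-142507957), whose product favors the reverse reaction, was low, with 9.85 and 9.57 CPM against 14.7 and 15.8 CPM, and was 1.57-fold higher (log2 fold change 0.65, SE 0.17, edgeR adjusted p = 0.0133). Ldha made up between 97.4% and 98.0% of the TPM of this pair in every library. Slc16a3, the lactate exporter MCT4, had 253 and 269 CPM against 360.3 and 366 CPM, 1.39-fold and thus also below the threshold (edgeR adjusted p = 0.00278, and 0.272 with the GC trend removed). Pdk1, which keeps pyruvate from the mitochondria by inhibiting pyruvate dehydrogenase and is likewise a HIF target, had 96.4 and 99.1 CPM against 83.4 and 78.9 CPM. Its propranolol libraries were the lower ones, yet the test was not passed (log2 fold change -0.27, SE 0.10, edgeR adjusted p = 0.0551), and the value was 0.01 with the GC trend removed.

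Of the bifunctional enzymes that set the level of fructose 2,6-bisphosphate, an activator of phosphofructokinase, Pfkfb4 was higher and Pfkfb3 did not pass the test. Pfkfb4 (chr9:108991778-109032228) had 87.1 and 84.3 CPM in controls and 131 and 143 CPM after propranolol and was 1.59-fold higher (log2 fold change 0.67, SE 0.10, edgeR adjusted p = 0.000733; 0.39 with the GC trend removed). Pfkfb3, the form with the strongest kinase activity, had 243 and 292 CPM against 210.2 and 258 CPM. Its groups overlapped (log2 fold change -0.19, SE 0.13, edgeR adjusted p = 0.253). The difference between the changes of both genes was not tested.

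**Figure D5:**
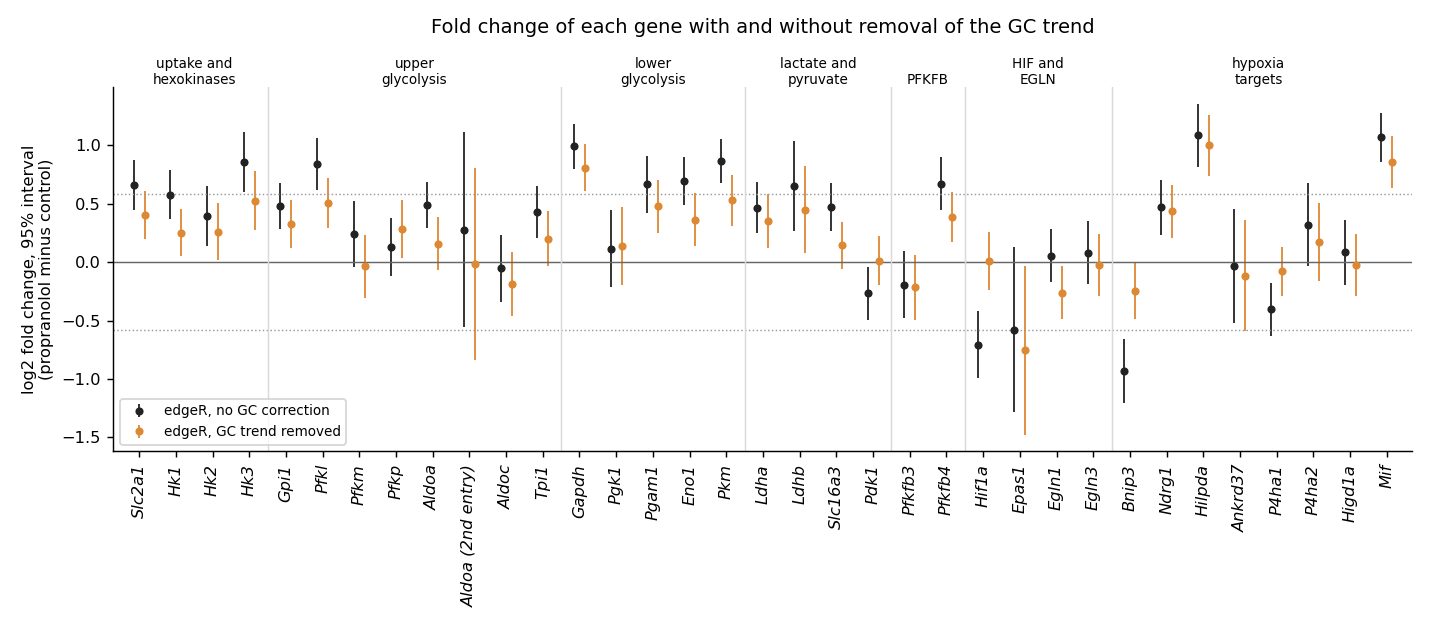
Log2 fold change (propranolol minus control) of each of the 35 entries with its 95% interval, from edgeR without GC correction (black) and with the GC trend of each library removed (orange); dotted lines mark a 1.5-fold change. Gapdh, Hilpda and Mif lie above the upper dotted line in both, whereas Hif1a moves from -0.71 to 0.01.

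Of the 4 HIF genes and regulators in the list, Hif1a was lower (25%, against 15.6% of all tested genes). Hif1a (chr12:73901375-73947530) encodes the alpha subunit of HIF-1 and had 205 and 175 CPM in controls and 129 and 103 CPM after propranolol. The groups did not overlap (log2 fold change -0.71, SE 0.13, edgeR adjusted p = 0.00188). The log2 fold change was -0.53 without control replicate 1 and -0.53 without propranolol replicate 2, which is under 1.5-fold in each case, and it was 0.01 with the GC trend removed (edgeR adjusted p = 0.962). The mRNA says nothing of the HIF-1 alpha protein, which is controlled mainly by degradation. Epas1, which encodes the alpha subunit of HIF-2, was low, with 9.31 and 5.26 CPM against 5.42 and 4.13 CPM. The libraries of the groups overlapped, with control replicate 2 just below propranolol replicate 1 (log2 fold change -0.58, SE 0.32, edgeR adjusted p = 0.17). Hif1a made up 95.4% and 96.9% of the TPM of both genes in the controls and 95.8% and 96.0% after propranolol.

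The prolyl hydroxylase genes of the list showed small values. Egln3, itself induced by HIF, had 40.9 and 36.9 CPM against 42.6 and 39.4 CPM and overlapping groups (log2 fold change 0.08, 95% interval -0.19 to 0.35, edgeR adjusted p = 0.626). Egln1, the main oxygen sensor, had a log2 fold change of 0.05 (95% interval -0.17 to 0.28, edgeR adjusted p = 0.699), which turned to -0.26 with the GC trend removed.

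Of the 8 hypoxia targets, Hilpda and Mif were higher and Bnip3 was lower. Of all tested genes, 12.2% were called higher and 15.6% lower. With the GC trend removed, Hilpda and Mif were higher and 0 were lower, against 7.64% and 4.99% of all tested genes. Hilpda (chr6:29272488-29275446), a lipid droplet protein that inhibits triglyceride breakdown, had the highest log2 fold change of the 35 entries, with 31.4 and 29.1 CPM in controls and 60.6 and 67.9 CPM after propranolol. It was 2.12-fold higher (log2 fold change 1.09, SE 0.12, edgeR adjusted p = 0.000189) and its log2 fold change was 0.999 with the GC trend removed (edgeR adjusted p = 0.000659). Mif (chr10:75859353-75860240), the cytokine macrophage migration inhibitory factor, had 135 and 139.8 CPM against 293 and 283 CPM. It was 2.1-fold higher (log2 fold change 1.07, SE 0.09, edgeR adjusted p = 0.000103), and 0.85 on the log2 scale with the GC trend removed (edgeR adjusted p = 0.000654). For both genes the groups were separated by more than the distance between replicates.

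Bnip3 (chr7:138890836-138909519), a mitochondrial receptor for autophagy, had 82.6 and 75.7 CPM in controls and 44.7 and 37.9 CPM after propranolol. Its level fell by 0.93 on the log2 scale (SE 0.12, edgeR adjusted p = 0.00036), and the log2 fold change was -0.25 with the GC trend removed (edgeR adjusted p = 0.122). P4ha1, a collagen prolyl hydroxylase subunit, had a log2 fold change of -0.40 with an edgeR adjusted p of 0.0101 (-0.08 and 0.588 with the GC trend removed), and the related gene P4ha2 one of 0.32 with an edgeR adjusted p of 0.129, both under 1.5-fold. Ndrg1, a stress-induced gene, had 0.47 (edgeR adjusted p = 0.0056), and 0.44 with the GC trend removed (edgeR adjusted p = 0.0146), both under 1.5-fold. Higd1a, a mitochondrial protein of the respiratory chain, and Ankrd37 had 0.09 (edgeR adjusted p = 0.614) and -0.03 (edgeR adjusted p = 0.92). Exons of Bnip3, Higd1a and Ankrd37 overlap the genes Gm45507, Gm47112 and Lrp2bp on the opposite strand over 22.3%, 22.5% and 22.7% of their length, and the strand setting of the counting is not given in the sources used here. These overlapping genes had at most 7 counts in any library. Exons of Ankrd37 also overlap Ufsp2 on the opposite strand over 3.7% of their length, and Ufsp2 had between 497 and 1437 counts in a library. Apart from these 3 entries and Pkm, the exons of a listed entry overlapped another gene over at most 11.5% of their length, in Gpi1.

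Other genes of glucose and hypoxia pathways moved in both directions. Of 73 further genes in a hand-written list, 65 were tested, 12 were higher, against 12.2% of all tested genes, and 9 were lower, against 15.6%, and their median log2 fold change was 0.01. The count of lower genes was 5 without control replicate 1 and 4 without propranolol replicate 2. The 8 genes of the pentose phosphate pathway, which branches from glucose 6-phosphate and yields NADPH, had 4 higher genes and 1 lower gene. With the GC trend removed, 2 were higher and 0 lower, against 7.64% and 4.99% of all tested genes. Pgls, which encodes the lactonase of this pathway, had 59.7 and 62.0 CPM in controls and 129 and 136 CPM after propranolol (log2 fold change 1.12, edgeR adjusted p = 0.000103). Pgd, which encodes the second dehydrogenase, had 347 and 333 CPM against 602 and 573 CPM (log2 fold change 0.79, edgeR adjusted p = 0.000219; 0.91 with the GC trend removed). G6pdx, the entry enzyme, and the transketolase gene Tkt were higher by 0.59 and 0.66 on the log2 scale, but each had 0.40 and was below 1.5-fold with the GC trend removed, and Rpe, the epimerase, fell by 0.64 but had 0.32 with the GC trend removed. Pck2, the mitochondrial phosphoenolpyruvate carboxykinase, was higher by 0.69 (0.61 with the GC trend removed). The edgeR adjusted p of these 4 genes was at most 0.00558.

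Among the further hypoxia targets, the lipid droplet coat gene Plin2 had the highest value, with 198 and 188 CPM in controls and 412 and 494 CPM after propranolol (log2 fold change 1.23, SE 0.11, edgeR adjusted p = 0.000103; 1.08 with the GC trend removed). Like Hilpda, Plin2 acts at lipid droplets. Plod1, a collagen lysyl hydroxylase, was higher (239 and 228 CPM against 463 and 468 CPM, log2 fold change 0.996, edgeR adjusted p = 0.000103), whereas Plod2, of the same family, was the lowest of the list (19.4 and 8.61 CPM against 2.23 and 1.18 CPM, log2 fold change -2.94, edgeR adjusted p = 0.000545). Control replicate 1, the library with the highest mesenchymal markers, also had the highest Plod2. Egln2, the third prolyl hydroxylase, was higher by 1.05 and the heme oxygenase gene Hmox1 by 0.69 (edgeR adjusted p = 0.000112 and 0.000468), and with the GC trend removed Egln2 had 0.79 and Hmox1 0.48, the latter under 1.5-fold. Values for Ugp2, which makes UDP-glucose for glycogen, fell by 1.33, those for the nuclear receptor gene Rora by 1.32, for the transferrin receptor gene Tfrc by 0.94, for the kinase gene Pdk3 by 0.81, for the Bnip3 relative Bnip3l by 0.72 and for the dehydrogenase subunit gene Dld by 0.70, all with edgeR adjusted p at or below 0.00642. With the GC trend removed, Pdk3 had -0.63 and was still called, whereas the other 5 lost their calls, with -0.35 for Ugp2, -0.55 for Rora, -0.05 for Tfrc, -0.06 for Bnip3l and 0.08 for Dld. Bnip3l, Dld and Rpe also lost their calls without control replicate 1 and without propranolol replicate 2, and Pdk3 without the latter library.

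Vegfa, the angiogenic factor and a classical HIF target, had 152 and 173 CPM in controls and 126 and 179 CPM after propranolol, with overlapping groups (log2 fold change -0.10, 95% interval -0.44 to 0.24, edgeR adjusted p = 0.641). Slc2a3, the high-affinity glucose transporter GLUT3, had 26.3 and 34.04 CPM against 32.1 and 40.0 CPM, also with overlap (log2 fold change 0.24, 95% interval -0.12 to 0.60, edgeR adjusted p = 0.258). The other 8 of the 73 genes were below the filter on low counts. With the GC trend removed, 10 of the 65 genes were higher, against 7.64% of all tested genes, and 3 were lower, against 4.99%. The 10 were Pgls, Pgd, Pck2, Egln2, Plod1 and Plin2, called higher without the correction too, and Slc16a7, Pdha1, Pdp1 and Pygl, which were not. The 3 were Plod2, Pdk3 and the collagen prolyl hydroxylase gene P4ha3, which was not called without the correction. Slc16a7, a monocarboxylate transporter gene, went from -0.51 (edgeR adjusted p = 0.0108) to 0.65 (edgeR adjusted p = 0.0093), and the pyruvate dehydrogenase phosphatase gene Pdp1 from -0.18 to 0.78 (edgeR adjusted p = 0.556 and 0.0226). The correction also raised the median of all tested genes by 0.11. Fewer of the 65 genes were higher when it was centred on each library's mean. Of the 15 settings that kept the thresholds, Slc16a7 and Pdha1 were called in 2, Pdp1 and Pygl in 3 and Pck2 in 14. The 5 newly called genes, Slc16a7, Pdha1, Pdp1, Pygl and P4ha3, were named after their values were seen.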

How the data were processed

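RNA sequencing counts of sorted TAMs were analyzed for 2 control and 2 propranolol libraries, grouped by the treatment in the labels. The authors deposited whole-number counts of fragments per gene without normalization. According to the labels and methods, reads were aligned to mm10 with STAR 2.7.1a, alignments with a mapping quality above 30 were kept with SAMtools 1.9 and exons were counted with featureCounts 1.6.4, and DESeq2 is also named, in version 1.39.0 by the labels and in another version by the methods. The GENCODE release and the strand setting are not given in the sources used here. No column was left out (0 columns), and all rows name a gene.

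The deposited counts were tested in R 4.3.3 with the edgeR 4.0.16 quasi-likelihood test on all genes, without covariates, after TMM normalization and filterByExpr with a count minimum of 10, with Benjamini-Hochberg adjustment over 14688 genes. TMM factors were 1.08 and 1.09 for the control and 0.914 and 0.931 for the propranolol libraries. The common dispersion was 0.0172. Replicates of a group differed by more than sampling noise, since the chi-square statistic divided by its degrees of freedom was 10.6 and 13.7. Names, positions, exon lengths and GC content of the longest transcript came from GENCODE M21 on GRCm38, the assembly of mm10, in which 54079 genes matched and 67 did not. Promoter sequences came from RefSeq on GRCm38.p6. The GC trend was removed through offsets, after a natural spline (5 degrees of freedom) had been fitted for each library to the deviation of log2 CPM against GC content. Steps were tested on simulated data. The members and lists were chosen with earlier results of these data known. Named with values in each library were all changed members and a fixed set (Slc2a1, Hk2, Pfkfb3, Gapdh, Pkm, Ldha, Slc16a3, Pdk1, Hif1a, Epas1, Egln3, Bnip3, Hilpda and Mif). Of the other pathway genes, the 8 highest and 8 lowest changed ones, Vegfa and Slc2a3 were named, and G6pdx was added as the entry enzyme of its pathway after its value was seen.

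The alternatives were DESeq2 1.42.0, limma-voom (limma 3.58.1), DESeq2 size factors, upper-quartile factors, no filter, a stricter filter (CPM of 1 or more in both libraries of a group), leaving out each library, the replicate number as a block, the GC correction with and without that block, and other thresholds. A GC correction centred on each library's mean was chosen after seeing the data. When a library was omitted, the remaining one was taken to have the spread seen between the libraries of the other group. Flow cytometry and qRT-PCR were not analysed here.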

Additional observations from a re-analysis of the deposited data

How the results depend on the processing

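Over the listed genes, the counts of 11 higher and 2 lower entries stayed the same with DESeq2 size factors, upper-quartile factors, the stricter filter and limma-voom, and Hk1 was added as higher by DESeq2 and without a filter. Leaving out 1 library gave 12 to 14 higher and 1 to 3 lower entries. Hif1a lost its call without control replicate 1 and without propranolol replicate 2, where 1 entry was lower, and Epas1 was added as lower without control replicate 2. For the further pathway genes, leaving out 1 library gave 9 to 13 higher and 4 to 13 lower genes, with 5 lower without control replicate 1 and 4 without propranolol replicate 2, and for all genes 1837 to 2119 higher and 1664 to 2305 lower. The alternative thresholds changed the counts by construction. Without a fold threshold, 19 listed entries were higher and 3 lower, as were 16 and 15 of the further pathway genes and 3205 and 2999 of all genes. With a log2 fold change beyond 1.5, 0 entries of the list were higher and 0 lower, against 0 and 1 of the further genes and 61 and 667 of all genes. The glmTreat test against 1.5-fold gave 5 higher and 1 lower, 4 and 2, and 413 and 680.

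Whether same-numbered libraries were paired could not be settled from the counts. Deviations of replicate 1 from its group mean correlated between the groups with r = 0.169 over 14688 genes. With 2 libraries a group, replicate 2 mirrors replicate 1, so this single value can neither show nor exclude a pairing. With the replicate block, 11 listed entries were higher and 2 lower, as were 11 and 10 of the further genes and 1867 and 2495 of all genes.

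Among the alternatives that kept the thresholds, the GC corrections moved the counts of higher listed entries and of all genes furthest. The uncentred correction gave 3 listed entries higher and 0 lower, 10 further genes higher and 3 lower, and 1122 higher and 733 lower of all genes. The GC correction with the replicate block gave 3 and 1 (Epas1), 10 and 3, and 1181 and 947. The centred GC correction gave 3 and 0, 7 and 4, and 637 and 951. For the further genes, upper-quartile factors gave 8 higher and 10 lower. The cause of the GC trend was not tested.

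Fold changes changed sign in some settings. Those near 0 were Egln1 with upper-quartile factors (-0.0051), and Aldoc (0.0186) and Ankrd37 (0.0397) without a filter. Leaving out 1 library gave ranges on both sides of 0 for Aldoc (-0.1426 to 0.0807), Ankrd37 (-0.2912 to 0.2180), Vegfa (-0.3349 to 0.1394), Pgk1 (-0.1675 to 0.3819) and Egln1 (-0.0126 to 0.1503). Under the GC correction, with the replicate block in second place and the centred correction in the third, the values were -0.0356, -0.0406 and -0.1602 for Pfkm, -0.0159, -0.0193 and -0.1403 for the second Aldoa entry, -0.2611, -0.2659 and -0.3856 for Egln1, -0.0209, -0.0259 and -0.1453 for Egln3, -0.0274, -0.0308 and -0.1520 for Higd1a, and 0.3193, 0.3123 and 0.1951 for Rpe. Hif1a, Rpe and Dld, all called lower without the correction, were among the genes that changed sign. With the uncentred correction, without and with the block, the values were 0.0115 and 0.0118 for Pdk1, 0.0094 and 0.0063 for Hif1a, and 0.0850 and 0.0685 for Dld. For Egln1 the edgeR adjusted p was 0.0357 with the block and 0.0282 with the centred correction, with a change under 1.5-fold. Precision differed among the listed entries. Epas1, with 63 to 197 counts in a library and with 9.31 and 5.26 CPM in the controls, had an SE of 0.32. Ldhb, with 146 to 536 counts, had an SE of 0.17, and Pkm, with 30547 to 143369 counts, one of 0.08.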
